A study of Arabidopsis thaliana with 36 samples.

Results

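The genes described are 35 loci that act in mitosis and cytokinesis, out of 33341 loci in the count table. They were chosen by locus identifier and not by a measured value, but with earlier results of these data known. The list holds 9 B-type cyclins, 6 A-type cyclins, 5 cyclin-dependent kinases (CDKs), 3 Aurora kinases and 5 spindle, kinetochore and checkpoint genes. It also holds 2 activators of the anaphase-promoting complex (APC/C), 3 cytokinesis genes and 2 MYB3R transcription factors. All 35 loci carry the matching name in the reference annotation. RNA was measured in hypocotyls of Arabidopsis thaliana seedlings, 7 days old when operated on. Each of the 12 groups crosses a genotype with a tissue and holds 3 biological replicates, 36 libraries in all. The genotypes were the wild type Col-0 and 3 mutant lines of transcription factor genes, labelled dof quadruple, erf114,115 and anac071,096. The tissues were an uncut hypocotyl piece of 1 mm (intact) and, 24 h after a transverse cut and the joining of the top of a plant to the base of another, 0.5 mm of hypocotyl above the junction (scion) and 0.5 mm below it (rootstock). Every plant, intact ones included, had lost a cotyledon, so the intact plants are not unwounded. The sources used here do not give the number of seedlings per library or the alleles of the mutants.

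A plant cell enters mitosis when CDKs bound by A- and B-type cyclins become active. Aurora kinases and the spindle checkpoint then watch over the attachment of chromosomes, and the APC/C, switched on by CDC20, marks the B-type cyclins for destruction so that the cell can leave mitosis. Plant cells divide by building a cell plate on the phragmoplast, a microtubule array on which KNOLLE, MAP65-3 and HINKEL work. Many of these genes are transcribed in G2 and M phase through the mitosis-specific activator (MSA) element, which MYB3R factors bind. In a hypocotyl most cells have stopped dividing, and after cutting, cells near the junction resume division as the cut ends join.

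The upstream sequences show the letters that most of these genes share. The core of the MSA element, AACGG, was searched on both strands in the 300 bases before the annotated start of each gene, in the RefSeq copy of the TAIR10.1 assembly. It was present at least once in 22 of 35 genes (62.9%) and at least 2 times in 12 (34.3%). Among all 27443 protein-coding genes of the nuclear chromosomes whose window could be read, 23.4% held it at least once and 4.53% at least 2 times. By role, it was found in 7 of 9 B-type cyclins, 4 of 6 A-type cyclins, 1 of 5 CDKs, 2 of 3 Aurora kinases, 3 of 5 spindle and checkpoint genes, 1 of 2 APC/C activators, all 3 cytokinesis genes and 1 of 2 MYB3R genes. Genes of these families descend from shared ancestors, so their windows are not independent. Neither these windows nor those of all genes were cleared of annotated exons. Exons cover 291 of the 300 bases for MYB3R4, 213 for CDKB1;1 and 194 for CDKB2;1, fewer in some other windows, and none in those of the genes printed below. The 180 bases directly before the gene start are printed for 5 genes with 2 or more matches and for CDKA;1, which has none and whose RNA was called changed in no graft comparison. These windows were chosen after the matches and the RNA values had been seen. Each reads 5′ to 3′ along its gene, and capitals mark the core, as AACGG or, where it lies on the other strand, as CCGTT.
CYCB1;1 (chr4:17624309-17624488, minus strand): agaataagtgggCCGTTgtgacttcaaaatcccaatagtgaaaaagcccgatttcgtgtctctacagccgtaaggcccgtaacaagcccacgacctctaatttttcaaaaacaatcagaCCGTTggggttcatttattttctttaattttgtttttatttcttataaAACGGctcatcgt
CYCB1;2 (chr5:1861704-1861883, minus strand): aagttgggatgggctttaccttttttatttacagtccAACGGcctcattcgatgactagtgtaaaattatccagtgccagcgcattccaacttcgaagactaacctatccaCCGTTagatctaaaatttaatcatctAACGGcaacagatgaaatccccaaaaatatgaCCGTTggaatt
CYCB1;3 (chr3:3627274-3627453, minus strand): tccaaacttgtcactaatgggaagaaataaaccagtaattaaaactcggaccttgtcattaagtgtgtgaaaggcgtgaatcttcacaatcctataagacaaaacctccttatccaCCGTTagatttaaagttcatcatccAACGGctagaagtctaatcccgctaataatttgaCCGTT
CYCB2;1 (chr2:7663875-7664054, plus strand): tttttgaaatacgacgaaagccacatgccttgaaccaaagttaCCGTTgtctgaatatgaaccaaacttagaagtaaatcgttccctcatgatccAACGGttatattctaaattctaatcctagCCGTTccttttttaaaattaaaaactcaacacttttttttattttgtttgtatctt
MAP65-3 (chr5:20964538-20964717, minus strand): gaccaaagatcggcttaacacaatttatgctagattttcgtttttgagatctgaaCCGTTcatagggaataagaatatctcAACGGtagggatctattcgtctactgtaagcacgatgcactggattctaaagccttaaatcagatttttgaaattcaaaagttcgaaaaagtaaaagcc
CDKA;1 (chr3:18071274-18071453, plus strand): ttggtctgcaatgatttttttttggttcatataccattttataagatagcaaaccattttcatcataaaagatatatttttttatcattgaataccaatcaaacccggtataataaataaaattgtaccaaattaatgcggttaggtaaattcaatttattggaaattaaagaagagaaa

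**Figure D1:**
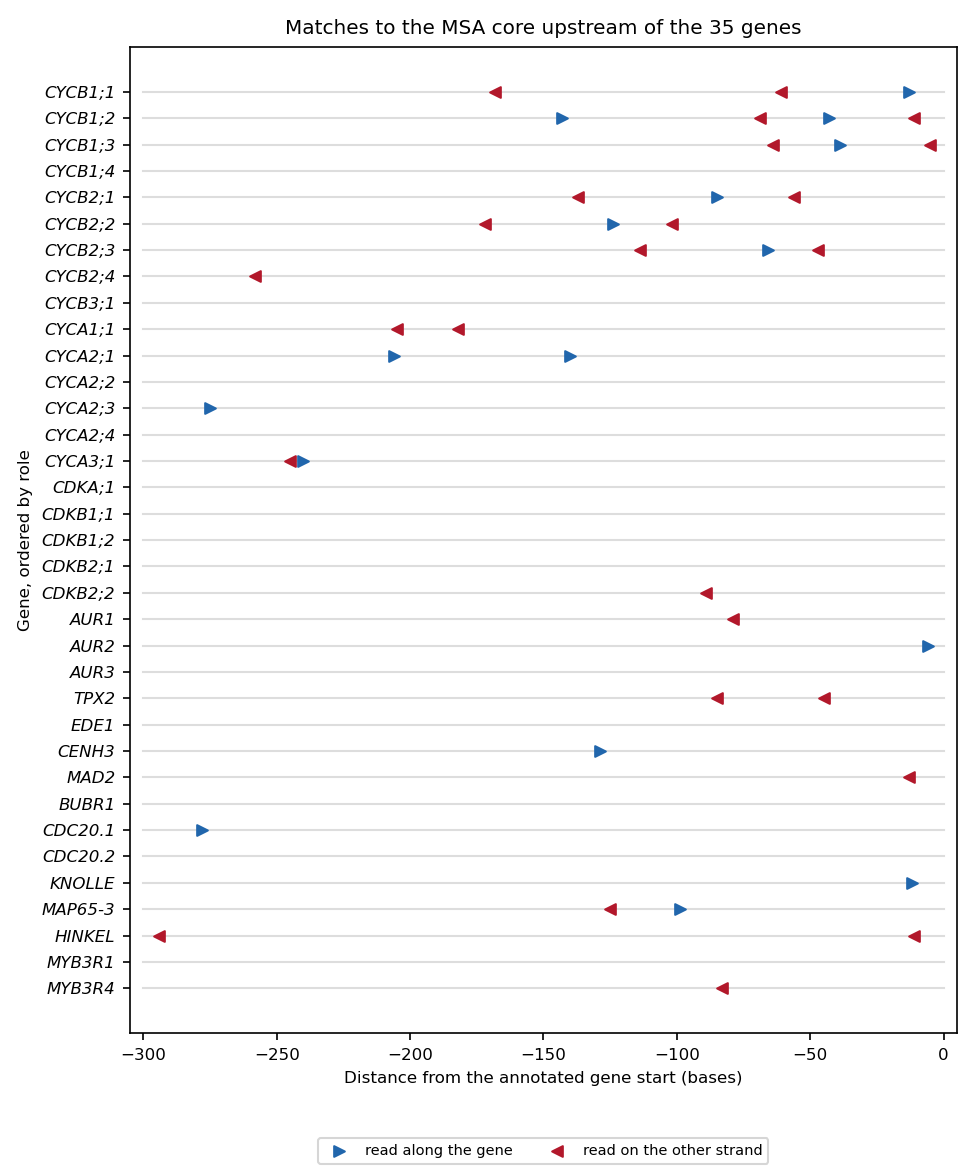
Positions of the MSA core in the 300 bases before the annotated start of the 35 genes; the x axis is the distance from the start in bases, arrowheads pointing right mark AACGG read along the gene and those pointing left mark it on the other strand. Of the 35 genes, 22 have at least 1 match, and all 6 windows with 3 or more belong to B-type cyclins.

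In Col-0 the median log2 change against intact tissue was 3.12 in the scion and 2.73 in the rootstock for the 21 tested genes with a match, and 3.29 and 2.89 for the 13 without. Loci outside the list that were called higher on both sides of the Col-0 junction held the core in 25.1% of 2964 windows, close to the 24.9% of all tested loci.

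The 36 libraries held 19.5 to 30.5 M counts (median, 23.8 M), and levels are given in CPM (counts per M, that is per 1000000 counts, on scaled library sizes). The common coefficient of biological variation was 25.8%. A gene is called where its adjusted p was under 0.05. The Col-0 rootstock replicate 1 library held counts at 2514 loci that had none in any other library, where the next highest number was 34. Without that library, the number of genes called higher in the Col-0 rootstock was 31 in place of 32. The targeted genes of the erf114,115 and anac071,096 lines were lower in all 6 of the mutant's graft libraries than in all 6 of Col-0: 5.42 to 7.26 against 49.3 to 65.3 CPM for ERF114, 0.447 to 1.69 against 27.6 to 70.7 for ERF115, 1.45 to 8.31 against 9.45 to 27.4 for ANAC071, and 5.36 to 7.16 against 29.0 to 53.6 for ANAC096. The labels do not say which DOF genes the dof quadruple line lacks. Of the 4 usually named for such a line, DOF6, TMO6 and DOF2.1 were lower in all its graft libraries than in Col-0, with 0 to 0.0467 against 1.499 to 2.47 CPM, 39.4 to 84.1 against 116 to 256 CPM and 129 to 164 against 233 to 442 CPM, while HCA2 read 45.5 to 88.5 CPM against 20.5 to 46.8. The difference of DOF2.1 was called in the rootstock but not in the scion, with a log2 difference of -0.72 (adjusted p = 0.235), and in intact tissue DOF2.1 was called higher in the mutant, with 1.16 (adjusted p = 0.0031).

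The first question was how the mitotic genes stood beside the graft in the wild type. In Col-0, 32 of the 34 tested genes rose in the scion and 32 in the rootstock, and none fell. Of all 19476 tested loci, 29% were called higher in the scion and 22.6% in the rootstock. The median log2 change of the 34 genes was 3.15 in the scion and 2.78 in the rootstock, where that of all tested loci was 0.01 and 0.03. All 32 calls on each side were at least 2-fold, which 19.7% and 14.9% of all loci reached. A fit of the Col-0 intact and rootstock libraries alone ended 6 of the 32 rootstock calls, those of CYCB1;1, CYCA2;4, CYCA3;1, AUR2, AUR3 and CENH3, with log2 changes from 1.10 to 2.36 and adjusted p from 0.064 to 0.16. CDKA;1 and MYB3R1 (AT4G32730) were the genes not called on either side, and CYCA2;1 (AT5G25380) had too few counts to be tested. A locus passes the count filter if enough libraries of any tissue reach the minimum. Genes nearly absent from intact tissue, such as CYCA2;2, were thus tested because of their graft libraries, and the counts of risen genes include them. The same filter acted on all loci. In bulk tissue, a higher level cannot be told apart from a larger share of dividing cells, since fewer cells of a type and less RNA per cell give the same value. A graft piece lay at the cut while the intact piece was longer, so position along the hypocotyl cannot be told apart from grafting.

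**Figure D2:**
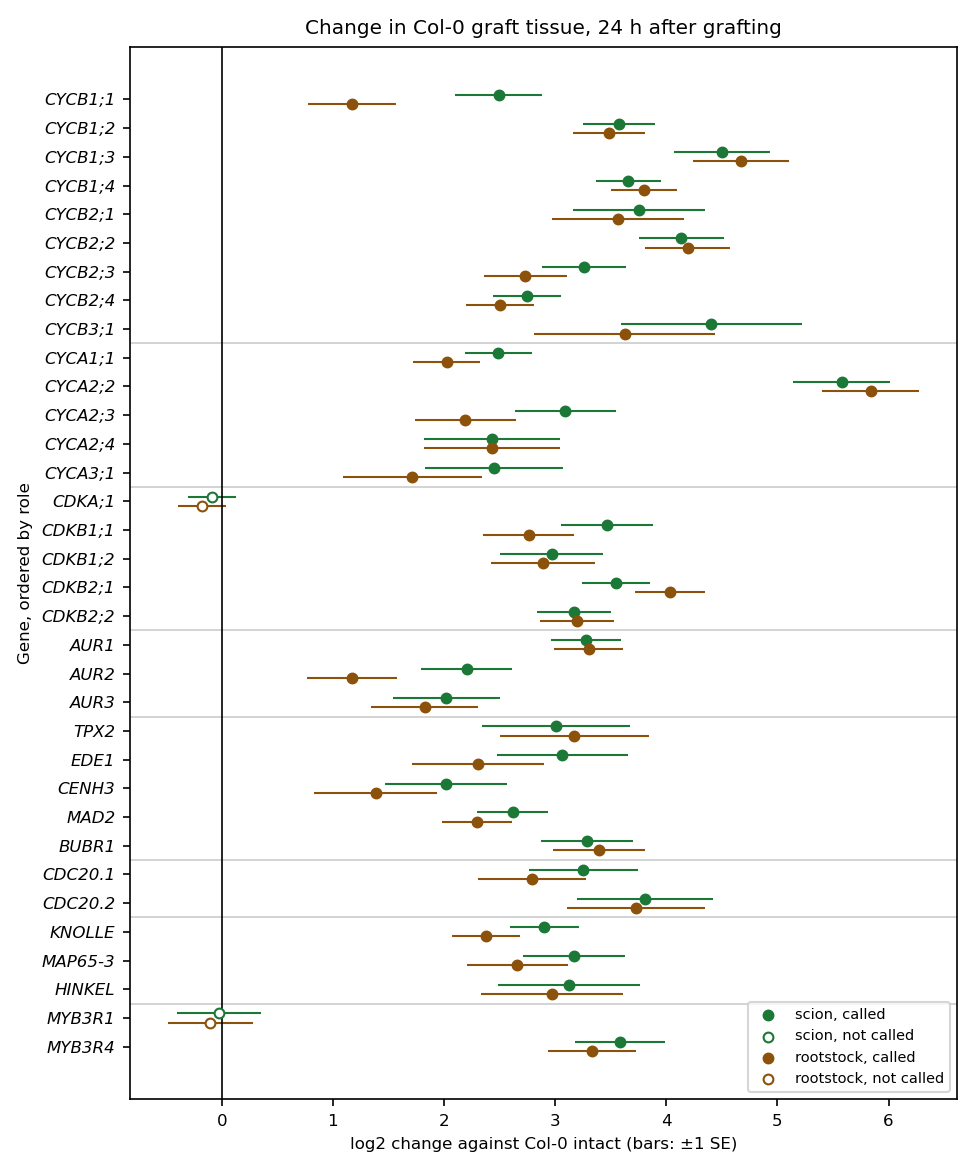
Log2 change against Col-0 intact (x axis) for the 34 tested genes ordered by role, in the scion (green) and the rootstock (brown); bars are 1 SE and open circles were not called. Apart from CDKA;1 and MYB3R1, which lie near 0, all genes lie to the right on both sides, from 1.17 for CYCB1;1 in the rootstock to 5.84 for CYCA2;2.

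The B-type cyclins, which activate CDKs at the entry into mitosis, all rose on both sides: 9 of 9 in the scion, with log2 changes from 2.49 to 4.50, and 9 of 9 in the rootstock, from 1.17 to 4.68. CYCB1;1 (AT4G37490), a cyclin of the G2 to M transition widely used as a marker of dividing cells, lies at chr4:17621886-17624308 on the minus strand. It stood at 0.873, 0.489 and 0.459 CPM in the intact libraries, 2.79, 3.53 and 3.97 in the scion and 1.15, 1.49 and 1.46 in the rootstock. The groups did not overlap, and the scion was the highest. Its log2 change was 2.49 ± 0.39 (SE, adjusted p = 3.35e-06) in the scion and 1.17 ± 0.39 (SE, adjusted p = 0.0179) in the rootstock. That the rootstock was called depended on intact replicates 2 and 3 and rootstock replicate 2, since it missed the threshold when any of these Col-0 libraries was left out, with values from 1.01 to 1.52 over the 6 omissions.

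CYCB1;2 (AT5G06150), a close relative, read 1.24, 2.27 and 0.459 CPM in intact tissue, 14.03, 17.5 and 17.0 in the scion and 15.8, 14.8 and 15.1 in the rootstock. CYCB2;1 (AT2G17620), of another class of B-type cyclins, read 0.367, 0.0699 and 0.229 CPM, then 1.75, 3.42 and 3.72 and 1.40, 3.79 and 2.57. In both genes every graft library lay above every intact library, and the scion and rootstock overlapped. CYCB3;1 (AT1G16330), the lone listed gene of its class, was barely detected in intact tissue at 0.0919, 0.0699 and 0.184 CPM and reached 2.38, 3.53 and 1.54 in the scion and 1.40, 2.34 and 0.560 in the rootstock. Its log2 changes were 4.41 ± 0.81 (SE, adjusted p = 3.53e-05) and 3.63 ± 0.81 (SE, adjusted p = 6.02e-04), with the widest error of the class. CYCB1;3 (AT3G11520), with 4.50 ± 0.43 and 4.68 ± 0.43, had the second largest change of the whole list on both sides. The remaining B-type cyclins were called on both sides as well: CYCB1;4 (AT2G26760) changed by 3.66 and 3.798 on the log2 scale, CYCB2;2 (AT4G35620) by 4.14 and 4.19, CYCB2;3 (AT1G20610) by 3.26 and 2.73, and CYCB2;4 (AT1G76310) by 2.75 and 2.50, scion first.

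The A-type cyclins act in S phase, in G2 and at the entry into mitosis, and the 5 that could be tested rose on both sides. CYCA1;1 (AT1G44110), of the class most tied to mitosis, read 2.16, 1.43 and 2.11 CPM in intact tissue, 8.67, 10.6 and 12.7 in the scion and 6.80, 8.14 and 8.17 in the rootstock, with no overlap between the 3 groups. The log2 change was 2.49 ± 0.30 (SE, adjusted p = 5.28e-08) in the scion and 2.02 ± 0.30 (SE, adjusted p = 2.69e-06) in the rootstock. CYCA2;2 (AT5G11300), of the next class, had 0, 6 and 2 counts in the intact libraries, 135, 163 and 142 in the scion and 140, 168 and 103 in the rootstock. It changed most of all genes on the list, by 5.58 ± 0.44 (SE, adjusted p = 2.18e-11) and 5.84 ± 0.44 (SE, adjusted p = 1.27e-11), and the size of the fold rests on very few intact counts.

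CYCA2;3 (AT1G15570), which holds back endoreduplication, read 0.413, 0.839 and 0.184 CPM in intact tissue, 3.09, 5.22 and 4.37 in the scion and 1.80, 2.096 and 2.91 in the rootstock. CYCA3;1 (AT5G43080), a cyclin of the G1 to S transition, read 0.0459, 0.629 and 0.138 CPM, then 1.71, 1.42 and 1.58 and 0.650, 0.685 and 1.51, and its intact and rootstock groups nearly met. The call of CYCA3;1 in the rootstock, 1.71 ± 0.63 (SE, adjusted p = 0.0294), did not survive the omission of intact replicate 1 or 3 or rootstock replicate 3, at 1.25, 1.41 and 1.22, and the value was 3.29 without intact replicate 2. CYCA2;1 held 0, 4 and 0 counts in the intact libraries, 0, 6 and 9 in the scion and 1, 4 and 5 in the rootstock, and was not tested. CYCA2;4 (AT1G80370), of the same class, rose by 2.43 on the log2 scale in the scion and 2.43 in the rootstock, with values from 1.87 to 3.57 on either side when a library was left out.

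Among the CDKs, the plant-specific B-type kinases moved and the general one was not called. CDKA;1 (AT3G48750), which works from G1 through mitosis, read 71.7, 44.8 and 64.8 CPM in intact tissue, 54.0, 57.1 and 59.1 in the scion and 51.7, 44.7 and 63.6 in the rootstock. These groups overlapped throughout, and the log2 changes were -0.09 ± 0.22 (SE, adjusted p = 0.743) and -0.18 ± 0.22 (SE, adjusted p = 0.540). CDKB1;1 (AT3G54180), active from S phase to mitosis, read 1.79, 0.804 and 0.964 CPM, then 8.22, 17.4 and 13.6 in the scion and 8.35, 7.14 and 8.56 in the rootstock, a log2 change of 3.47 ± 0.41 and 2.76 ± 0.41. CDKB1;2 (AT2G38620), its paralog with 85.9% of coding bases identical, changed by 2.97 ± 0.46 and 2.89 ± 0.47.

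CDKB2;1 (AT1G76540), whose RNA peaks at the G2 to M transition, lies at chr1:28720328-28722550 on the minus strand and read 2.66, 2.59 and 1.51 CPM in intact tissue, 23.1, 25.6 and 31.1 in the scion and 42.1, 35.2 and 34.1 in the rootstock. Every graft library was above every intact one, and every rootstock library was above every scion library. CDKB2;2 (AT1G20930), its close paralog with coding sequence 86.6% identical, read 1.88, 1.57 and 1.38 CPM, then 11.0, 15.2 and 17.5 and 16.1, 13.2 and 15.1, and its graft groups overlapped. The log2 changes of CDKB2;1 were 3.55 ± 0.31 (SE, adjusted p = 6.72e-11) in the scion and 4.03 ± 0.31 (SE, adjusted p = 9.82e-12) in the rootstock.

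Per kb of exon, CDKA;1 was the most abundant of the 35 genes in all 3 Col-0 tissues, at 40.3 ± 9.33 CPM per kb (SD, n = 3) in intact tissue and 37.9 ± 1.73 in the scion. In the scion it was followed by CDKB2;1 at 19.4 ± 2.99 and KNOLLE at 19.3 ± 1.46 CPM per kb, which did not differ beyond their spread, then by CYCB1;4 at 13.0 ± 1.85 and MAD2 at 12.5 ± 2.18, which did not either. CYCA2;1 was the lowest, at 0.0971 ± 0.0937 CPM per kb. In intact tissue the order after CDKA;1 was MYB3R1 at 3.07 ± 1.18 and KNOLLE at 2.58 ± 0.584, whose spreads overlapped.

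The Aurora kinases phosphorylate chromatin and spindle proteins in mitosis, and all 3 rose on both sides. AUR1 (AT4G32830), an alpha-type kinase of the spindle and cell plate, read 0.689, 0.804 and 0.734 CPM in intact tissue, 5.25, 8.54 and 7.98 in the scion and 7.60, 6.89 and 7.67 in the rootstock. AUR3 (AT2G45490), the beta type found at centromeres, read 1.29, 0.140 and 0.321 CPM, then 1.93, 2.51 and 2.55 and 2.95, 1.33 and 1.85, with the highest intact library just below the lowest rootstock one. AUR1 changed by 3.28 ± 0.31 (SE, adjusted p = 5.10e-10) and 3.30 ± 0.31 (SE, adjusted p = 6.76e-10) on the log2 scale, AUR3 by 2.02 ± 0.48 (SE, adjusted p = 6.86e-04) and 1.83 ± 0.48 (SE, adjusted p = 0.00290). The size for AUR3 rested on intact replicate 1, without which the values were 3.35 and 3.15. AUR2 (AT2G25880), the other alpha-type kinase, read 0.597, 1.05 and 2.62 CPM in intact tissue, 5.54, 7.05 and 7.00 in the scion and 2.50, 2.90 and 4.20 in the rootstock. It was called with 2.21 ± 0.41 (SE, adjusted p = 3.68e-05) in the scion and 1.17 ± 0.41 (SE, adjusted p = 0.0225) in the rootstock, where its libraries overlapped the intact ones. That rootstock value missed the threshold when intact replicate 1 or 2 or rootstock replicate 3 was left out, at 0.82, 0.99 and 0.93, and the value was 1.93 without intact replicate 3. The annotated span of AUR2, introns included, overlaps by 877 bases that of AT2G25890 on the opposite strand. That locus had 0 counts in all Col-0 libraries.

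All 5 spindle, kinetochore and checkpoint genes rose on both sides. TPX2 (AT1G03780), a spindle assembly factor, read 0.276, 0.874 and 0.275 CPM in intact tissue, 2.94, 4.54 and 4.45 in the scion and 4.90, 5.60 and 2.85 in the rootstock. EDE1 (AT2G44190), a microtubule-binding protein related to the augmin complex, read 0.184, 0.280 and 0.321 CPM, then 1.56, 2.30 and 2.83 and 0.600, 1.61 and 1.73. For both genes the intact libraries lay below all graft libraries. CENH3 (AT1G01370), the histone H3 form that marks centromeres, read 0.735, 0.350 and 0.872 CPM, then 2.64, 3.66 and 1.58 in the scion and 2.15, 1.37 and 1.57 in the rootstock. Its rootstock change of 1.39 ± 0.55 (SE, adjusted p = 0.0461) lost its call in 5 of 6 omissions of a library, all but that of intact replicate 3, with values from 1.07 to 1.65, and also under upper-quartile scaling, relative log expression scaling and no filter on low counts.

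Both checkpoint genes rose several-fold. MAD2 (AT3G25980), which holds back CDC20 until chromosomes are attached, read 2.53, 2.38 and 2.85 CPM in intact tissue, 13.4, 15.5 and 18.9 in the scion and 10.6, 12.7 and 14.8 in the rootstock. BUBR1 (AT2G33560), its partner in the checkpoint, read 0.551, 0.489 and 0.642 CPM, then 6.18, 5.08 and 5.22 and 6.05, 5.89 and 5.82. In both, graft and intact libraries were far apart and the scion and rootstock overlapped. MAD2 changed by 2.62 ± 0.32 (SE, adjusted p = 5.00e-08) and 2.30 ± 0.32 (SE, adjusted p = 7.15e-07), and BUBR1 by 3.29 ± 0.41 (SE, adjusted p = 8.16e-08) and 3.39 ± 0.41 (SE, adjusted p = 7.84e-08).

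The APC/C activators CDC20.1 and CDC20.2 rose together, but their separate values are uncertain: the coding sequences are 97.5% identical with a shared run of 314 bases, and the sources used here do not say how reads matching both were handled. CDC20.1 (AT4G33270) read 0.551, 1.01 and 0.275 CPM in intact tissue, 3.83, 7.12 and 7.13 in the scion and 2.85, 6.61 and 3.64 in the rootstock. CDC20.2 (AT4G33260) read 0.0919, 0.245 and 0.0459 CPM, then 2.05, 2.27 and 1.54 and 1.55, 1.81 and 2.18. Every graft library of either gene was above every intact one.

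The 3 cytokinesis genes rose on both sides. KNOLLE (AT1G08560), the syntaxin that fuses vesicles into the cell plate, lies at chr1:2709525-2711000 on the minus strand and read 4.50, 3.01 and 3.21 CPM in intact tissue, 24.7, 26.8 and 28.7 in the scion and 17.4, 17.9 and 20.3 in the rootstock, so that scion, rootstock and intact tissue stood in that order without overlap. Its log2 change was 2.90 ± 0.31 (SE, adjusted p = 5.22e-09) in the scion and 2.38 ± 0.31 (SE, adjusted p = 2.50e-07) in the rootstock. The annotated span of KNOLLE, introns included, overlaps by 464 bases that of AT1G08550 on the opposite strand. AT1G08550 had a mean of 17.8 CPM in intact tissue, 2.69 in the scion and 17.6 in the rootstock.

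MAP65-3 (AT5G51600), which bundles phragmoplast microtubules, read 0.459, 1.64 and 0.275 CPM in intact tissue, 4.87, 7.66 and 9.68 in the scion and 5.35, 6.05 and 4.20 in the rootstock. HINKEL (AT1G18370), the kinesin that drives the outward growth of the cell plate, read 0.827, 2.48 and 0.321 CPM, then 9.52, 12.4 and 10.8 and 11.2, 12.4 and 5.88. In both genes intact replicate 2 was the highest intact library and still below all graft libraries. The log2 changes of MAP65-3 were 3.17 ± 0.46 (SE, adjusted p = 9.15e-07) and 2.66 ± 0.46 (SE, adjusted p = 1.98e-05), and those of HINKEL 3.12 ± 0.64 (SE, adjusted p = 1.39e-04) and 2.97 ± 0.64 (SE, adjusted p = 3.80e-04).

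The pair of MYB3R factors that activate mitotic genes parted. MYB3R4 (AT5G11510) read 0.643, 1.57 and 0.459 CPM in intact tissue, 8.78, 12.3 and 12.02 in the scion and 9.90, 10.04 and 7.84 in the rootstock, a log2 change of 3.58 ± 0.40 (SE, adjusted p = 1.01e-08) and 3.33 ± 0.40 (SE, adjusted p = 5.65e-08). MYB3R1 read 9.83, 17.2 and 8.72 CPM, then 11.5, 11.5 and 12.2 and 9.75, 15.1 and 8.34, and these groups overlapped. Its log2 change was -0.03 ± 0.38 (SE, adjusted p = 0.963) in the scion and -0.10 ± 0.38 (SE, adjusted p = 0.856) in the rootstock, with a sign that depended on the library left out. In intact tissue MYB3R1 stood above MYB3R4 per kb of exon, at 3.07 ± 1.18 against 0.240 ± 0.161 CPM per kb (SD, n = 3), and in the scion the values were 3.03 ± 0.103 and 2.97 ± 0.528.

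Of 55 further mitosis genes listed beside these, 5 were dropped because the reference does not give that name at the locus, and 48 of the other 50 were tested. In the Col-0 scion, where 29% of all tested loci were called higher, 32 rose and 1 fell, with a median log2 change of 1.95. In the rootstock, where 22.6% of all tested loci were called higher, 26 rose and 2 fell, with a median of 1.23. Of all loci called in either direction, 53.6% were higher in the scion and 57.1% in the rootstock, and the rest were lower. The smallest adjusted p among those that rose were those of OSD1, an inhibitor of the APC/C, with 4.22 ± 0.36 (SE, adjusted p = 4.89e-11) in the scion and 4.00 ± 0.36 (SE, adjusted p = 1.88e-10) in the rootstock. In the scion they were followed by ANP3, a kinase upstream in the cytokinesis cascade, with 3.46 ± 0.30 (SE, adjusted p = 9.56e-11), and DRP5A, a dynamin of the cell plate, with 3.56 ± 0.33 (SE, adjusted p = 3.44e-10). In the rootstock they were followed by ATK5, a spindle kinesin, with 3.62 ± 0.35 (SE, adjusted p = 8.65e-10), and DRP5A with 3.26 ± 0.33 (SE, adjusted p = 2.50e-09). Those that fell were MYB3R3, a repressing MYB3R factor, with -0.99 ± 0.35 (SE, adjusted p = 0.0192) in the scion, and CYCA3;4 and CCS52A1 in the rootstock. CYCA3;4 changed by -0.66 ± 0.21 (SE, adjusted p = 0.0133) and CCS52A1, the APC/C activator linked to endoreduplication, by -0.58 ± 0.20 (SE, adjusted p = 0.0190).

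The rise was seen in all 4 genotypes. In the dof quadruple line 31 of 34 genes rose in the scion and 30 in the rootstock, where 28.7% and 22.9% of all tested loci were called higher. In erf114,115 the counts were 32 and 30, against 28.7% and 26.9% of all loci, and in anac071,096 they were 31 and 29, against 27% and 21.7%. No gene was called lower in any of these comparisons. The median log2 changes were 2.87 and 2.77 in dof quadruple, 3.37 and 3.19 in erf114,115, and 2.65 and 2.52 in anac071,096, scion first. In all 8 comparisons of graft with intact tissue, 27 of the 34 genes were called higher (79.4%), against 9.56% of all loci. The count filter could be passed through graft libraries alone, by these genes as by all loci. The scion and rootstock comparisons of a genotype share its intact libraries. With upper-quartile scaling, 47.9% in place of 60.03% of the loci called in the erf114,115 rootstock were higher, and 45.4% in place of 56.9% in the anac071,096 rootstock, with the median of all loci 0.16 and 0.15 lower on the log2 scale. The counts of mitotic genes called higher were again 30 and 29 under that scaling.

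**Figure D3:**
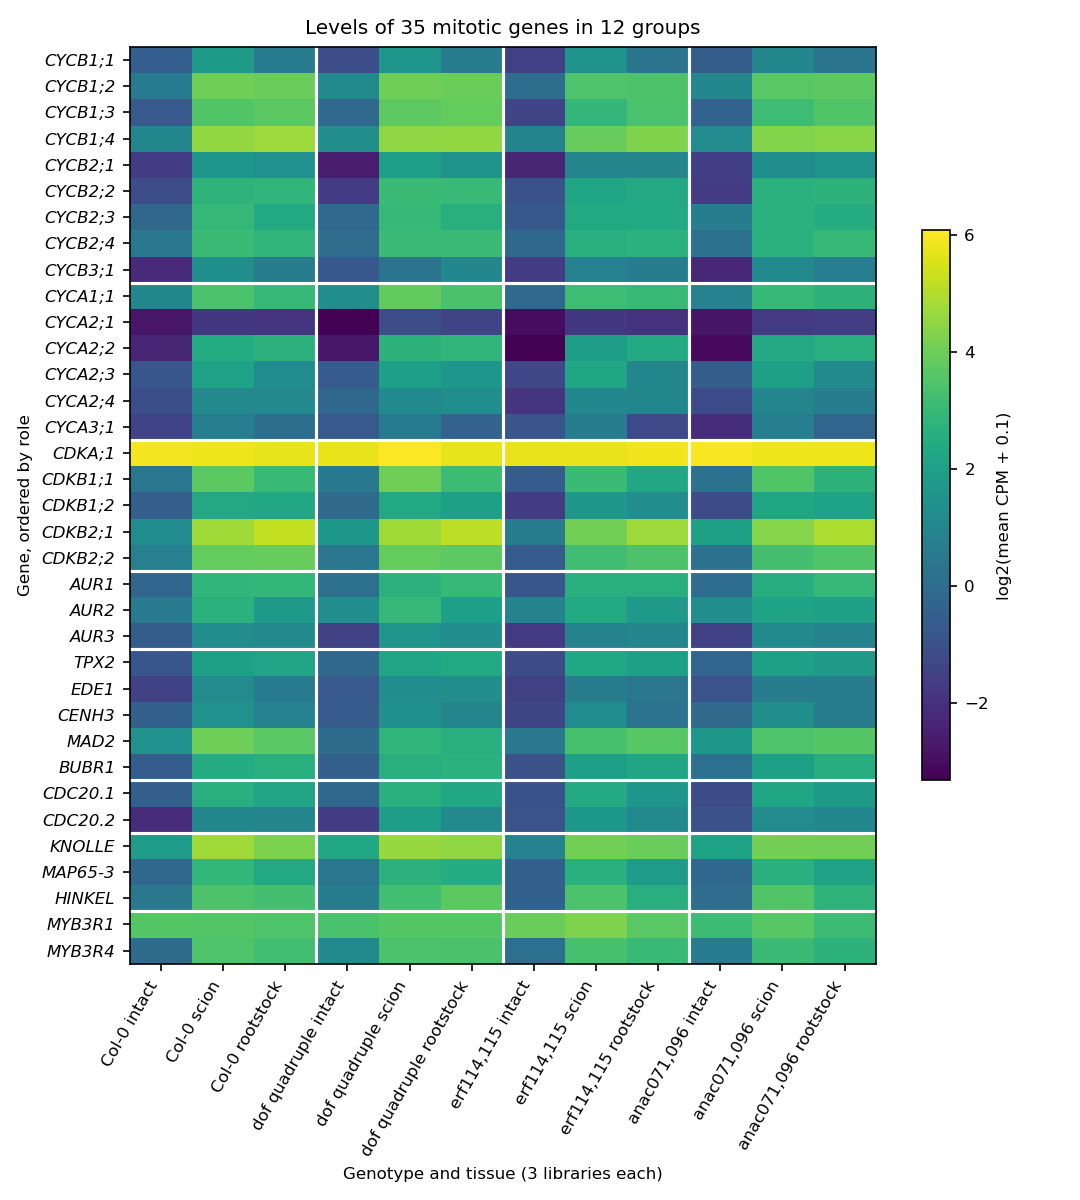
Mean level of each of the 35 genes (rows, by role) in the 12 groups (columns), as the log2 of the mean CPM of 3 libraries plus 0.1. In each genotype the intact column is darker than the 2 graft columns beside it, except for CDKA;1 and MYB3R1 and, in the erf114,115 rootstock, CYCA3;1.

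The genes that missed a call in some genotype were few. CDKA;1 and MYB3R1 were called in none of the 8 comparisons, with log2 changes from -0.18 to 0.30 and from -0.24 to 0.51. AUR2 was called in 4, missing dof quadruple rootstock at 0.73 (adjusted p = 0.143), erf114,115 rootstock at 0.93 (adjusted p = 0.0602), anac071,096 scion at 0.84 (adjusted p = 0.0755) and anac071,096 rootstock at 0.77 (adjusted p = 0.129). CYCA3;1 missed dof quadruple rootstock at 0.38 (adjusted p = 0.646) and erf114,115 rootstock at -0.51 (adjusted p = 0.551). CYCB3;1 missed dof quadruple scion at 1.22 (adjusted p = 0.135), and in anac071,096 rootstock CYCB1;1 stood at 0.95 (adjusted p = 0.0591) and CENH3 at 0.75 (adjusted p = 0.304). None of these misses was a called difference from Col-0, and a fit of the dof quadruple intact and rootstock libraries alone called AUR2, at 0.69 (adjusted p = 0.0481).

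CYCA2;2 had the largest log2 change in all 8 comparisons, from a near absence in intact tissue. In the erf114,115 intact libraries it had 0 counts, and the scion was at least 94.2-fold and the rootstock at least 130.4-fold higher, against a floor of 3 counts over the intact group. In the anac071,096 intact libraries it had 1 count, and the ratio of CPM was 331 in the scion, with a 95% interval of 59.1 to 13106, and 387 in the rootstock, with an interval of 69.1 to 15331. Such intervals cover counting error only. CYCA2;1, not tested, had 0 counts in dof quadruple intact tissue, and was at least 9.41-fold higher in that scion and at least 7.33-fold higher in the rootstock by the same floor.

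After CYCA2;2, the next largest changes differed by name but were B-type cyclins in most comparisons. They were CYCB2;1 (5.58) and CYCB2;2 (5.31) in the dof quadruple scion, and CYCB2;2 (5.29) and CYCB2;1 (5.06) in its rootstock. In erf114,115 they were CYCB1;3 (4.79) and CYCB2;1 (4.21) in the scion, and CYCB1;3 (5.31) and CDKB2;2 (4.23) in the rootstock. In anac071,096 they were CYCB2;2 (4.84) and CYCB3;1 (4.12) in the scion, and CYCB2;2 (4.93) and CYCB1;3 (4.07) in the rootstock. All these values are log2 changes against the intact tissue of the same genotype.

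The second question was whether the 2 sides of the junction differed. They did so for few of these genes, although in Col-0 46.2% of all tested loci were called between scion and rootstock in either direction. In Col-0 2 of the 34 genes were called, both higher in the scion: CYCB1;1 by 1.32 ± 0.37 (SE, adjusted p = 0.00426) and AUR2 by 1.03 ± 0.39 (SE, adjusted p = 0.0300). Scion and rootstock libraries did not overlap for either gene. How many of all loci showed no overlap between the sides was not counted, in this or the other genotypes. The AUR2 call was lost when Col-0 scion replicate 2 or 3 or rootstock replicate 1 or 2 was left out, with values from 0.88 to 1.27. Fitting the Col-0 scion and rootstock libraries alone gave 6 calls, 5 higher in the scion and 1 higher in the rootstock. Upper-quartile scaling, which raised the median of all loci in this comparison by 0.12 on the log2 scale, gave 3 calls, all higher in the scion.

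In dof quadruple 3 of 34 genes were called, against 39.8% of all loci, again higher in the scion. CYCB1;1 read 3.05, 2.23 and 3.56 CPM in the scion and 1.57, 1.39 and 1.54 in the rootstock, a difference of 0.97 ± 0.37 (SE, adjusted p = 0.0347). CDKB1;1 read 12.01, 19.4 and 17.8 and 8.94, 7.82 and 9.29 CPM, a difference of 0.92 ± 0.36 (SE, adjusted p = 0.0431). AUR2 read 6.40, 7.59 and 8.71 and 3.97, 3.802 and 3.87 CPM, a difference of 0.96 ± 0.38 (SE, adjusted p = 0.0459). None of the 3 pairs of groups overlapped. All 3 calls stood close to the threshold: the number called fell to 0 or 1 in every omission of a library, and to 0 with no filter on low counts, while a fit of these 2 groups alone gave 6, 5 of them higher in the scion.

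In erf114,115 3 of 34 genes were called, against 46.8% of all loci, all higher in the scion. CYCB1;1 read 1.37, 2.76 and 3.95 CPM in the scion and 1.27, 1.00 and 1.14 in the rootstock, a difference of 1.25 ± 0.37 (SE, adjusted p = 0.00708). CYCA2;3 read 3.61, 4.98 and 4.89 and 1.76, 2.14 and 1.84 CPM, a difference of 1.23 ± 0.41 (SE, adjusted p = 0.0147), and CYCA3;1 read 1.45, 1.85 and 1.16 and 0.496, 0.228 and 0.248 CPM, a difference of 2.20 ± 0.62 (SE, adjusted p = 0.00476). The groups did not overlap in these genes. The call of CYCB1;1 was lost without scion replicate 3, at 0.87, and in a fit of these groups alone, at 1.25, and those of CYCA2;3 and CYCA3;1 were kept in all 6 omissions. Without rootstock replicate 2, 6 genes were called. Under upper-quartile scaling 61.5% in place of 50.5% of the loci called in this comparison were higher in the scion, with the median of all loci 0.17 higher, and 4 of the 34 genes were called.

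In anac071,096 edgeR called 0 of the 34 genes between the sides, against 45.9% of all loci, with 3 at an unadjusted p under 0.05, 1 called by DESeq2 and 3 called under upper-quartile scaling. That scaling raised the median of all loci in this comparison by 0.14 on the log2 scale. CYCB1;1 read 1.88, 2.47 and 1.47 CPM in the scion and 1.24, 1.35 and 0.810 in the rootstock, with a difference of 0.78 ± 0.37 (SE, adjusted p = 0.0898) and no overlap. CDKB1;1 read 8.14, 11.8 and 14.3 and 7.19, 7.17 and 5.58 CPM, with a difference of 0.78 ± 0.36 (SE, adjusted p = 0.0796), again without overlap. Whether the difference between the sides itself differs between genotypes was not tested.

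CDKB2;1 stood lower in the scion in every genotype and was not called in any, except that a fit of the Col-0 scion and rootstock alone called it, with -0.52 (adjusted p = 0.0161). Its difference was -0.48 ± 0.27 (SE, adjusted p = 0.141) in Col-0, -0.41 ± 0.27 (SE, adjusted p = 0.235) in dof quadruple, -0.61 ± 0.27 (SE, adjusted p = 0.0614) in erf114,115 and -0.54 ± 0.27 (SE, adjusted p = 0.0973) in anac071,096. In each genotype all 3 rootstock libraries lay above all 3 scion libraries. How common such a separation is among all loci was not counted. CYCA2;2, AUR1, BUBR1, CYCB1;3 and CYCB1;4 also had negative differences in all 4 genotypes, none of them called. CDKB2;1 was picked out after the values had been seen.

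**Figure D4:**
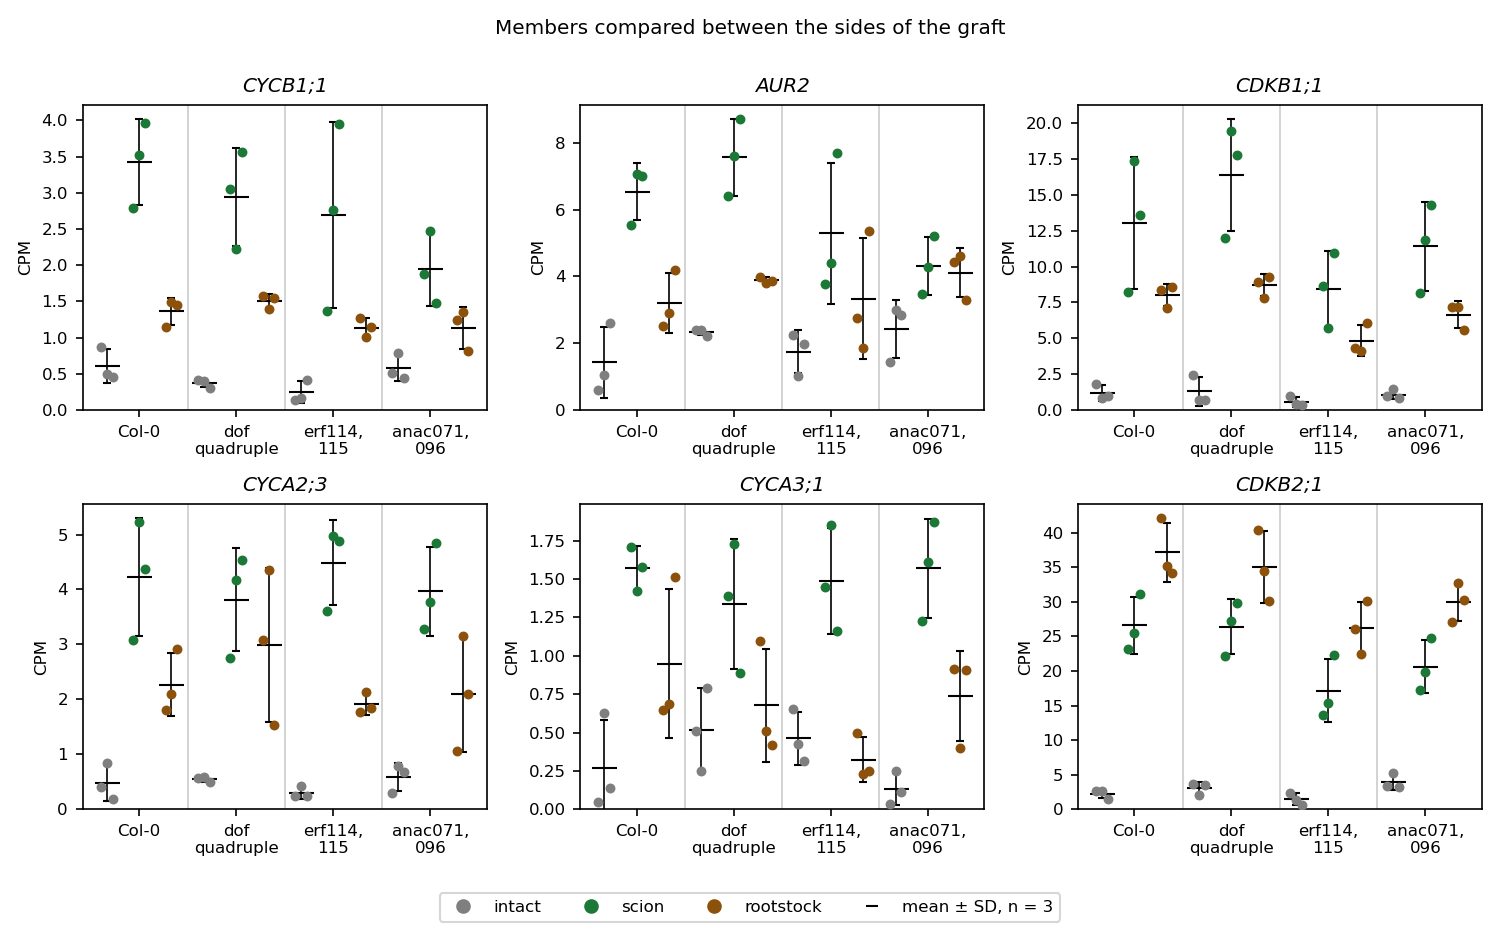
Level in CPM (y axis, from 0) of 6 genes in each library, by genotype and tissue; points are libraries, and black marks and bars are the mean and SD of 3. CYCB1;1, AUR2, CDKB1;1, CYCA2;3 and CYCA3;1 have higher means in the scion than in the rootstock in each genotype, and CDKB2;1 has lower ones. For AUR2 in anac071,096 the log2 difference was 0.07, with a sign that depended on the library left out.

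Genes of DNA replication were listed for a side by side count. All 8 of them, MCM2 to MCM7, PCNA1 and PCNA2, rose on both sides of the Col-0 junction, with a median log2 change of 3.60 in the scion and 2.48 in the rootstock. The shares of all tested loci called higher were 29% and 22.6%. Between scion and rootstock 7 of the 8 were called higher in the scion, with a median difference of 1.12, where the 34 mitotic genes had a median difference of 0.19 and all loci one of 0.08. This comparison called 46.2% of all loci, and 51.0% of those were higher in the scion. PCNA1, the sliding clamp of DNA polymerase, differed by 1.12 ± 0.25 (SE, adjusted p = 6.03e-04) and MCM2, a subunit of the replicative helicase, by 1.27 ± 0.30 (SE, adjusted p = 9.59e-04). The difference between these 2 lists was not tested.

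The third question was whether the mutants changed these genes. MAD2 was the one gene of the 34 called, and it was lower in the dof quadruple line in all 3 tissues. Of all loci, 4.59% were called in intact tissue, 1.5% in the scion and 3.73% in the rootstock. A count of 1 in 34 is near these shares, so it is not a result about the list as a whole. MAD2 lies at chr3:9503056-9504680 on the plus strand. In intact tissue it read 1.83, 0.462 and 0.378 CPM in dof quadruple against 2.53, 2.38 and 2.85 in Col-0. In the scion it read 6.02, 7.63 and 7.24 against 13.4, 15.5 and 18.9 CPM. In the rootstock it read 7.27, 5.56 and 5.00 against 10.6, 12.7 and 14.8 CPM. The libraries of the mutant and of Col-0 did not overlap in any tissue. Every mutant library lay below every Col-0 library for 5.88%, 2.94% and 5.88% of the 34 genes in intact tissue, scion and rootstock. The same held for 7.53%, 10% and 11.4% of all loci.

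The log2 difference of MAD2 was -1.61 ± 0.35 (SE, adjusted p = 0.00332) in intact tissue, -1.19 ± 0.30 (SE, adjusted p = 0.0311) in the scion and -1.10 ± 0.30 (SE, adjusted p = 0.0342) in the rootstock, that is 0.327, 0.439 and 0.467 times the Col-0 level. Grafting raised MAD2 in the mutant too, by 3.04 ± 0.35 (SE, adjusted p = 1.80e-08) in the scion and 2.81 ± 0.35 (SE, adjusted p = 1.44e-07) in the rootstock, and the response differed from that of Col-0 by 0.42 ± 0.45 (SE, adjusted p = 0.937) and 0.51 ± 0.46 (SE, adjusted p = 0.969), neither of them called. The 3 tissues are separate libraries but share the plant lines. The intact call was lost without dof quadruple intact replicate 2, at -1.27, and the value was -2.60 without replicate 1, the highest of its group. The scion call was lost in 5 of 6 omissions, with values from -1.30 to -1.05, and the rootstock call in 4 of 6, from -1.26 to -0.97. A fit of the 2 intact groups alone gave -1.56 with an adjusted p of 0.317.

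BUBR1, its partner, was not called in any tissue of this line. It stood at 0.20 ± 0.44, 0.14 ± 0.35 and 0.09 ± 0.35 on the log2 scale in intact, scion and rootstock tissue of dof quadruple against Col-0. In the other mutants MAD2 read 1.35, 1.49 and 0.970 CPM in erf114,115 intact tissue and 3.08, 3.30 and 3.07 in anac071,096 intact tissue. In intact tissue every erf114,115 library lay below every Col-0 library, and every anac071,096 library lay above. None of the differences of MAD2 from Col-0 was called in these lines. The annotated span of MAD2 overlaps by 4 bases that of AT3G25990 on the opposite strand. AT3G25990 read 0.284 CPM in intact tissue of both dof quadruple and Col-0.

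**Figure D5:**
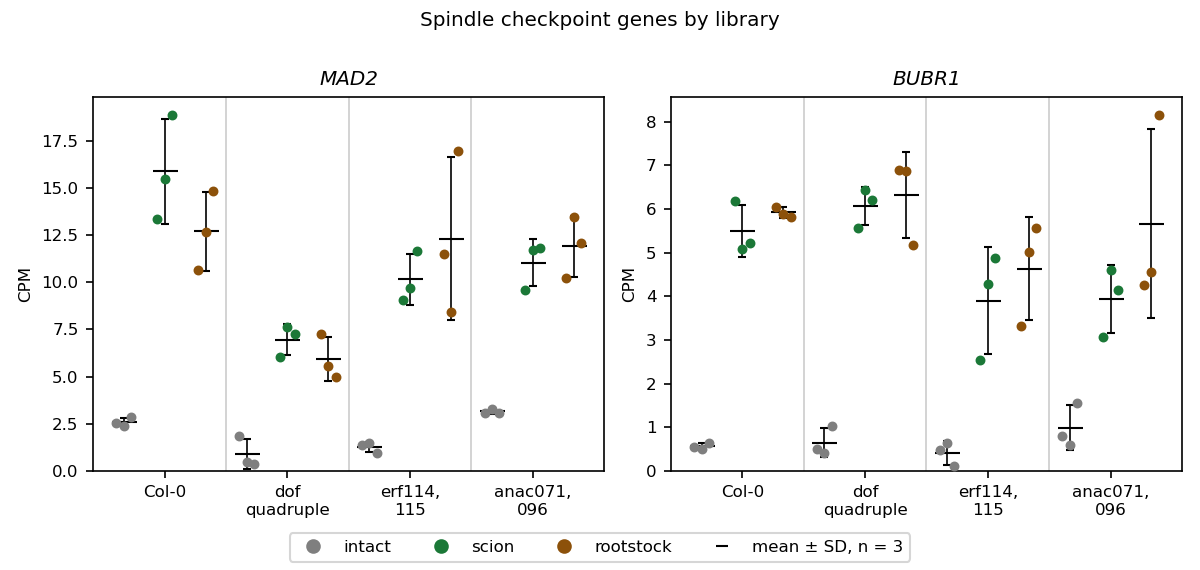
Level in CPM (y axis, from 0) of MAD2 and BUBR1 in each library, by genotype and tissue; points are libraries, and black marks and bars are the mean and SD of 3. MAD2 is lower in dof quadruple than in Col-0 in each tissue, with means of 0.891 against 2.58, 6.96 against 15.9 and 5.94 against 12.7 CPM, while BUBR1 overlaps.

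The other 33 tested genes were not called in dof quadruple. Of all 34, MAD2 included, 23, 19 and 27 had a positive difference in intact tissue, scion and rootstock. Over all loci, 52.2%, 50.5% and 51% had a negative one. MYB3R4 had the smallest adjusted p among those not called in intact tissue, with 2.39, 1.79 and 2.08 CPM against 0.643, 1.57 and 0.459 and a difference of 1.18 ± 0.40 (SE, adjusted p = 0.103). These groups did not overlap. In the further mitosis list, OSD1 was called higher in dof quadruple intact tissue by 1.39 ± 0.37, ANP3 in the same tissue by 1.08 ± 0.30, and CCS52A1 in its rootstock by 0.68 ± 0.20 (log2, SE). Of all loci, 4.59% were called in intact tissue and 3.73% in the rootstock. These are single calls out of that list and not a result about the list as a whole.

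In erf114,115 no gene was called against Col-0, but most stood below it. The edgeR and DESeq2 counts were both 0 in each tissue, where 0.0308%, 0.893% and 0.38% of all loci were called in intact tissue, scion and rootstock. The log2 difference was negative for 27, 30 and 28 of the 34 genes, and for 51.7%, 47.3% and 43.3% of all loci. The medians were -0.67, -0.46 and -0.27, against -0.01, 0.02 and 0.05 over all loci. At an unadjusted p under 0.05 there were 12 genes in intact tissue, 11 of them lower, 5 in the scion and 2 in the rootstock, all lower, where 2.11%, 4.03% and 5.26% of all loci passed in that direction. The 34 genes share their libraries, so these counts are not independent observations.

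Genes with every erf114,115 library below every Col-0 library numbered 8 in intact tissue, 9 in the scion and 11 in the rootstock, or 23.5%, 26.5% and 32.4% of the 34, where 2.87%, 9.27% and 5.33% of all loci did so. This count was added after the values had been seen. The same count was 2, 1 and 2 in dof quadruple, where all loci gave 7.53%, 10% and 11.4%, and 0, 6 and 2 in anac071,096, where they gave 1.88%, 6.43% and 4.32%. KNOLLE read 2.47, 1.02 and 1.63 CPM in erf114,115 intact tissue and 15.4, 12.02 and 22.8 in its scion, with differences of -1.07 ± 0.33 (SE, adjusted p = 0.916) and -0.67 ± 0.29 (SE, adjusted p = 0.393). CDKB2;2 had the smallest p in intact tissue, with a difference of -1.50 ± 0.38 (SE, adjusted p = 0.553). CYCB1;4 read 12.6, 13.5 and 18.7 CPM in the erf114,115 scion and 23.5, 20.4 and 27.2 in that of Col-0, a difference of -0.66 ± 0.25 (SE, adjusted p = 0.316).

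Differences from Col-0 were also set against transcript length. In erf114,115, Spearman's rho over the 34 genes between exon length and the log2 difference was 0.45 in intact tissue, 0.56 in the scion and 0.23 in the rootstock. Over 19325 loci with a length it was 0.33, 0.24 and 0.01. These correlations run across genes, which are not independent replicates. The same measure in dof quadruple was 0.34, -0.08 and 0.50 over the genes and 0.20, -0.15 and -0.02 over all loci. In anac071,096 it was 0.09, 0.21 and -0.13 over the genes and -0.17, 0.30 and -0.07 over all loci. MAD2 is among the shorter transcripts of the list with 1273 exon bases, as is KNOLLE with 1386, whose differences in dof quadruple were 0.46, -0.12 and 0.29. The part of transcript length in these differences was not tested.

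Length also marked libraries within a group. In the erf114,115 rootstock the long transcripts HINKEL (3.53, 11.0 and 3.38 CPM), TPX2 (2.87, 7.29 and 1.69 CPM) and MYB3R4 (6.01, 11.1 and 6.95 CPM) were highest in replicate 2. The short MAD2 (11.5, 8.43 and 17.0 CPM), KNOLLE (14.3, 9.43 and 22.3 CPM) and CDKA;1 (56.0, 42.4 and 79.0 CPM) were lowest there. Across the 36 libraries, rho between exon length and the deviation from the group mean ran from -0.64 to 0.65 over the 34 genes and from -0.47 to 0.45 over all loci. For graft against intact tissue in Col-0 it was 0.06 in the scion and -0.0011 in the rootstock over the genes. The values were -0.31 and -0.21 in dof quadruple, -0.10 and -0.31 in erf114,115, and 0.0038 and -0.15 in anac071,096, scion first. Between scion and rootstock, rho over the genes was 0.16 in Col-0, -0.19 in dof quadruple, 0.41 in erf114,115 and 0.34 in anac071,096.

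In anac071,096 edgeR and DESeq2 each called 0 genes against Col-0 in each tissue, where 0.0411%, 0.385% and 0.863% of all loci were called in intact tissue, scion and rootstock. At an unadjusted p under 0.05 there were 5, 2 and 0 genes, or 14.7%, 5.88% and 0% of the 34, where 2.59%, 3.42% and 4.68% of all loci passed. Of the 5 in intact tissue 3 were higher, and both in the scion were lower. The log2 difference was negative for 15, 29 and 25 of the 34 genes, against 47.9%, 47.2% and 42.9% of all loci. The medians were 0.07, -0.25 and -0.19. CYCB1;1 in the scion, at 1.88, 2.47 and 1.47 CPM, had a difference of -0.82 ± 0.36 (SE, adjusted p = 1.00) from Col-0, and its mean was the lowest of the 4 scion groups.

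The grafting response itself, the change from intact tissue in a mutant minus that in Col-0, was not called different for any gene in any mutant, by edgeR or by DESeq2. In scion and rootstock, 0.945% and 0.899% of all loci were called for dof quadruple, 0.0513% and 0.0462% for erf114,115, and 0.0462% and 0.205% for anac071,096. At an unadjusted p under 0.05 there were 4 and 0 genes for dof quadruple, 2 and 5 for erf114,115, and 7 and 2 for anac071,096, where 6.84% and 6.96%, 4.33% and 5.12%, and 2.91% and 3.63% of all loci passed. Of the 7 genes in the anac071,096 scion, 20.6% of the 34, 6 had a smaller change than in Col-0. The 6 responses share the Col-0 libraries. CYCB3;1 had the most negative difference, -3.18 ± 1.06 (SE, adjusted p = 0.255) in the dof quadruple scion, where it read 1.02, 0.706 and 1.66 CPM against 0.764, 0.154 and 0.566 in intact tissue.

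Markers of other cell types were read beside the mitotic genes, since a hypocotyl piece could hold dividing cells of other kinds. WOX5, PLT1, PLT2, SMB and BRN2, of the root tip, all had 0 counts in the intact libraries of each genotype, and their sum did not pass 0.750 CPM in any library. EXPA7, COBL9 and RHD6, of root hairs, had 0 counts in all intact libraries and a sum of at most 0.400 CPM elsewhere. Of the 5 shoot meristem genes, CLV3 had 0 counts in all 9 Col-0 libraries. The sum of the list in Col-0 ran from 2.13 to 3.72 CPM in intact tissue, 4.80 to 8.41 in the scion and 0 to 0.400 in the rootstock. STM, the member of this list with enough counts to be tested, was not called in the scion, at 1.03 (adjusted p = 0.109), and fell in the rootstock, at -5.23 (adjusted p = 6.96e-06).

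Markers of other cell types were read in the same libraries. The sum of the 4 root initiation genes GATA23, LBD16, LBD29 and LBD18 was 0.505 to 0.839 CPM in Col-0 intact tissue, 31.8 to 39.3 in the scion and 12.6 to 18.04 in the rootstock, and 2 of the 3 tested rose on each side. LBD29 had 0 counts in the Col-0 intact and scion libraries. The sum of the 5 cambium genes was 124 to 157 CPM in intact tissue, 282 to 314 in the scion and 263 to 285 in the rootstock, with 4 of 5 rising in the scion and 3 in the rootstock. Stomatal lineage genes, 6 in number, summed to 14.4 to 18.5 CPM in intact tissue, 7.66 to 11.2 in the scion and 7.89 to 11.8 in the rootstock, with 1 of 5 falling on each side. Over all tested loci, 29% were called higher in the Col-0 scion and 22.6% in the rootstock. Of the loci called in either direction, 53.6% were higher in the scion and 57.1% in the rootstock, and the rest were lower. At an unadjusted p under 0.05, 27.6% and 20.7% of all loci were lower. A fall of 1 in 5 is thus not a result about the stomatal list. The part of any of the cell types read here in the mitotic genes' rise was not tested.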

How the data were processed

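Polyadenylated RNA from 36 hypocotyl samples was sequenced in paired-end libraries, per the labels' protocols. Whole-number read counts per locus were deposited by the authors, and the submitters' processing notes name fastp, HISAT2, HTSeq, DESeq2 and the TAIR10 genome. The sources used here give no versions, strand setting or handling of reads matching several loci. Without a strand setting, reads of overlapping opposite-strand loci cannot be told apart, and 12 of the 35 genes have such a neighbour. All 36 sample columns were used and 0 were left unused, and no pair of libraries was identical.

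From the counts, edgeR 4.0.16 with limma 3.58.1 in R 4.3.3 fitted 1 robust quasi-likelihood model with TMM scaling to the 12 groups (24 residual degrees of freedom). filterByExpr with a minimum count of 10 kept 19476 of 33341 loci. Tests were two-sided, p-values were adjusted by Benjamini-Hochberg over all tested loci within each of 27 comparisons, and standard errors were derived from the fitted change and its F statistic. The code was tested on simulated data. Alternatives were upper-quartile and relative log expression scaling, other filters, DESeq2 1.42.0, a replicate block, fits of the compared groups alone, and omission of each library. Intervals and floors cover counting error only. Replicates are biological per the series' design.

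The members and lists were chosen with earlier results of these data known. By rule, values are given for 26 genes that stand for each role, the 3 largest called changes in each direction, and genes not called where 5 or fewer were not. The library omissions given for single genes, the counts without overlap, the length comparison, the check of targeted genes and the printed sequences were chosen after values were seen. Names, positions and sequences come from the TAIR10.1 assembly of RefSeq, matched by locus.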

Additional observations from a re-analysis of the deposited data

Results flagged for a closer look

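Scion and rootstock of the same genotype were compared directly, and 8 differences between the sides passed the threshold, all of them higher in the scion. Of all loci, 46.2% were called between the sides in Col-0, 39.8% in dof quadruple and 46.8% in erf114,115. In Col-0 these were CYCB1;1 with a log2 difference of 1.32 and AUR2 with 1.03. In dof quadruple they were CYCB1;1 with 0.97, CDKB1;1 with 0.92 and AUR2 with 0.96. In erf114,115 they were CYCB1;1 with 1.25, CYCA2;3 with 1.23 and CYCA3;1 with 2.20. The AUR2 call in Col-0 was lost in 4 of 6 omissions of a library. In dof quadruple the calls of CYCB1;1, CDKB1;1 and AUR2 were lost in 5, 5 and 6 of 6. That of CYCB1;1 in erf114,115 was lost in 1 of 6. CYCB1;1 was called in Col-0, dof quadruple and erf114,115, and in anac071,096 only by upper-quartile scaling, with 0.92 (adjusted p = 0.0405). In anac071,096 that scaling also raised the median difference of all loci between the sides, by 0.14 on the log2 scale. Without it, CYCB1;1 stood at 0.78 there (adjusted p = 0.0898). Whether its difference between the sides varies with genotype was not tested.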

How the results depend on the processing

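The counts of genes called higher beside the graft changed little: over the other settings they ran from 26 to 32, with the Col-0 scion at 32 throughout, and none was called lower. Between the sides, upper-quartile scaling called 3 genes in anac071,096, DESeq2 and the replicate block 1 each, and the fit without the count filter called 0 in dof quadruple. Fitting only the compared groups called 6 in Col-0, 6 in dof quadruple and 2 in anac071,096. For mutants against Col-0, DESeq2 called 2 in dof quadruple intact tissue, 1 of them higher, while the fit of only the compared groups called 0 there and 1, lower, in the anac071,096 scion. The cause of these shifts was not tested. Responses were called for 0 genes in all settings.

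With single libraries left out, counts between the sides ran from 1 to 2 in Col-0, 0 to 1 in dof quadruple, 3 to 6 in erf114,115 and 0 to 1 in anac071,096. Those of dof quadruple against Col-0 ran from 0 to 3 in intact tissue and 0 to 1 in scion and rootstock. Graft calls ran from 32 to 32 and 29 to 31 in Col-0, 29 to 30 and 28 to 29 in dof quadruple, 31 to 32 and 29 to 31 in erf114,115, and 30 to 31 and 28 to 29 in anac071,096, scion first.

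Values that turned sign were all uncalled ones. CDKA;1 in the erf114,115 rootstock was -0.041 with upper-quartile scaling, and MYB3R1 was 0.028 in the Col-0 scion and 0.0095 in the anac071,096 rootstock with the replicate block. With a library left out, CDKA;1 ran from -0.27 to 0.051 in the Col-0 scion, -0.17 to 0.083 in the dof quadruple rootstock, -0.33 to 0.19 in the erf114,115 scion and -0.13 to 0.33 in its rootstock. MYB3R1 ran from -0.20 to 0.34 in the Col-0 scion, -0.40 to 0.26 in the Col-0 rootstock, -0.33 to 0.71 in the erf114,115 scion, -0.82 to 0.13 in its rootstock and -0.26 to 0.20 in the anac071,096 rootstock. CYCA3;1 ran from -0.13 to 0.86 in the dof quadruple rootstock, and AUR2 between the sides of anac071,096 from -0.086 to 0.20.

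Replicate numbers are shared across groups in the labels. Deviations of same-numbered libraries had a median correlation of 0.089 over 198 pairs, from -0.38 to 0.68, with 95 pairs over 0.1. Pairs with other numbers had a median of -0.048. The labels do not say that a number marks a shared batch, and same-numbered libraries were not treated as pairs. Of 36 libraries, 29 correlated best with libraries of their own number, a hint from the data and not the design. Apart from the count for anac071,096 between the sides, the block left every count of calls within 1.5 times, and it called AUR2 at 0.87 in the erf114,115 rootstock (adjusted p = 0.0452) and 0.84 in the anac071,096 scion (adjusted p = 0.0410), where the fit without it did not. Depth limits CYCA2;1, CYCA2;2 and CYCB3;1 most, which had few or no counts in intact tissue.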
